A study of Mus musculus with 16 samples.

Results

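Heat shock proteins are described here in mouse bone marrow-derived macrophages (BMDMs) that were exposed to factors from tumor cells and to inhibitors of JAK and IKK. The 10 genes were chosen by their symbols, with earlier results of these data known, and all 10 were found among the 55487 genes of the count table. They encode the heat shock transcription factor (Hsf1), the inducible HSP70 pair (Hspa1a and Hspa1b), the constitutive HSP70 (Hspa8), HSP110 (Hsph1), an HSP40 (Dnajb1), both cytosolic HSP90 proteins (Hsp90aa1 and Hsp90ab1) and the mitochondrial chaperonin pair HSP60 and HSP10 (Hspd1 and Hspe1). All 10 passed the filter on low counts, which kept 12372 genes with a CPM (counts scaled to a common library size) above 1 in at least 2 samples.

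The RNA-seq libraries were made from BMDMs of 8 week old wild-type Balb/c mice, which were serum starved before treatment. There were 2 libraries of cells in DMEM alone and 3 libraries of cells in DMEM with ruxolitinib (DMEM + Rux), whose dose and time the labels do not give. Conditioned medium (CM) was taken from serum-starved cultures of 4T1, a mouse mammary tumor cell line, and was given alone (3 libraries), with ruxolitinib at 0.5 μM (CM + Rux, 3 libraries labelled 4 h), or with this dose of ruxolitinib plus IKK-16 at 0.8 μM (CM + Rux + IKK-16, 3 libraries). A further 2 libraries of CM + Rux are labelled 2 h, and what this time counts from is not given in the sources used here. The labels give no time for the libraries in DMEM alone, CM alone or CM + Rux + IKK-16. For RNA, the study's methods name 4 h of treatment with CM and ruxolitinib. Ruxolitinib was already present in the pre-treatment, while IKK-16 was added together with ruxolitinib and CM. Ruxolitinib inhibits the kinases JAK1 and JAK2, which pass cytokine signals to STAT proteins, while IKK-16 blocks the IKK kinases upstream of NF-κB. All treated cells in CM shared the same tumor cell line, so that CM stands for the medium of 1 line. The control was DMEM, while the study's methods name RPMI for growing 4T1 cells and no medium for their starvation. The make-up of the medium, its use by the tumor cells and their secreted factors thus cannot be told apart. No source says whether libraries of a group came from separate mice or cultures, and p-values then measure the spread between libraries, which may be technical.

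Chaperones of the HSP70 family bind unfolded stretches of proteins, HSP40 proteins bring clients to HSP70 and start its ATPase cycle, and HSP110 exchanges the nucleotide that HSP70 holds. HSP90 proteins act later on clients such as kinases and receptors, while HSP60 and HSP10 fold proteins inside mitochondria. In unstressed cells HSF1 is held inactive by chaperones, and after heat or other protein damage it forms trimers that bind heat shock elements, which are repeats of inverted GAA units, in the promoters of chaperone genes. Macrophages meet such stress in inflamed tissue and in tumors. Hspa1a and Hspa1b lack introns and are known to be transcribed within minutes of stress, while Hspa8 and Hsp90ab1 are abundant in resting cells.

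The count depth was 18449388 to 46215853 fragments per library, and mitochondrial genes took 0.785 to 1.05% of the counts. Macrophage markers (7 of 7 tested, among them Adgre1, Csf1r and Cd68) summed to 33800 to 45100 CPM per library, mostly Lyz2 (28500 to 38000 CPM). Between DMEM and CM + Rux at 4 h, the mean of Mertk went from 25.4 to 5.18 CPM and that of Fcgr1 from 102 to 52.6 CPM. The mean of Itgam went from 110 to 166 CPM. Markers of tumor epithelial cells summed to at most 1.45 CPM, with 1 of the 5 at 0 in every library. The sums were at most 2.7 CPM for neutrophils, 0.0552 for T and NK cells, 0.233 for B cells, 12.7 for dendritic cells and 20 for fibroblasts. The neutrophil sum was 0.207 to 0.286 CPM in DMEM and 1.56 to 2.7 CPM in CM, mostly S100a8, with Ly6g at 0 in every library. The dendritic cell sum was 8.53 to 12.7 CPM in the 2 h libraries and 2.16 to 2.19 CPM in CM + Rux at 4 h, mostly Zbtb46, with Flt3 at most at 0.167 CPM. The epithelial sum was at most 0.118 CPM in DMEM and 0.692 to 1.45 CPM in CM. The part of these markers in the changes below was not tested. In whole cultures, a change in RNA per cell and a change in the share of cells that hold it cannot be told apart.

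The sequences before the start sites of the inducible HSP70 pair are shown first, since these were the members that varied most between groups. Both genes lie on the minus strand of chromosome 17 (GRCm38), Hspa1a at chr17:34969190-34972156 and Hspa1b at chr17:34956436-34959238, and each is a single exon. The 120 bases before each start site, from RefSeq (GRCm38.p6), are printed 5′ to 3′ on the minus strand with the pair of inverted GAA units in capitals.
Hspa1a, chr17:34972157-34972276: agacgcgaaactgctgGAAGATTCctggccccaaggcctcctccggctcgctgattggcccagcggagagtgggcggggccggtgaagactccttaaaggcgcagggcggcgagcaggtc
Hspa1b, chr17:34959239-34959358: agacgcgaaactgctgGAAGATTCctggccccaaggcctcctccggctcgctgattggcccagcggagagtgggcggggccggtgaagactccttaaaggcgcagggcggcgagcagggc
The pair of units ends 97 bases before either start site. Over 250 bases before the start sites the genes differ at 3 bases. The transcripts are also alike: 38.1% of the 150 base stretches of the Hspa1a transcript, and 40.5% of those of Hspa1b, are identical in the other gene. Fragments were counted only with a mapping quality of at least 10, so that those from identical stretches may be missing or misplaced, and the split of counts between both genes is uncertain.

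Heat shock elements of 3 units were searched as GAANNTTCNNGAA or TTCNNGAANNTTC, and shorter elements of 2 units, which every 3 unit element also holds, as GAANNTTC or TTCNNGAA. The windows reached from 250 bases before to 50 bases after a start site. The 3 unit element was found in 4 of the 9 promoters listed for 6 of the members, beside 0.603% of all 32851 promoters, and the 2 unit element in 6 of the 9, beside 15.1% of all. Both Hsph1 windows overlap, and the Hspe1 window overlaps both Hspd1 windows, so that the 9 promoters are not independent. Hspd1 and Hspe1 are divergent neighbours on chromosome 1. They share a run of 4 units between the Hspe1 start site and 1 of the Hspd1 start sites, while Hsph1 holds its 3 units just after the start site. The stretches below are shown because they hold these elements, in capitals, on the strand of the gene named.
Hspe1, chr1:55088053-55088082, plus strand: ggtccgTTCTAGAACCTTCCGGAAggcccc
Hsph1, chr5:149636287-149636316, minus strand: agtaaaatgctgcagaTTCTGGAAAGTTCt
No such element was in either window of Dnajb1, which says only that these letters are not there. The share of members with an element is a description of sequence, and binding by HSF1 was not measured.

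The 10 genes differed widely in level. In CM, in CPM per kilobase of exon, Hspa8 stood highest at a level of 624, followed by Hsp90ab1 at 420 and Hsp90aa1 at 103. Hspd1 had a level of 44.1, Dnajb1 of 20.2, Hspe1 of 14.6 and Hsph1 of 12.3 CPM per kilobase. The lowest levels in CM were those of Hsf1 (7.53), Hspa1b (4.67) and Hspa1a (2.53), in the same unit. The unit divides by the summed exon length of a gene, which a single transcript may not reach. Counts of Hspa1a and Hspa1b may also lack fragments from the stretches they share, so that the order of these low levels is uncertain. The order of the groups was not shared by all members, as the plot of the 10 genes by library shows. Over the 6 groups, the SD of the mean log2 CPM was 1.03 for Hspa1b and 0.95 for Hspa1a, between 0.25 and 0.58 for Hsf1, Dnajb1, Hsp90ab1, Hsp90aa1, Hspa8 and Hsph1, and 0.14 for Hspd1 and 0.17 for Hspe1.

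**Figure D1:**
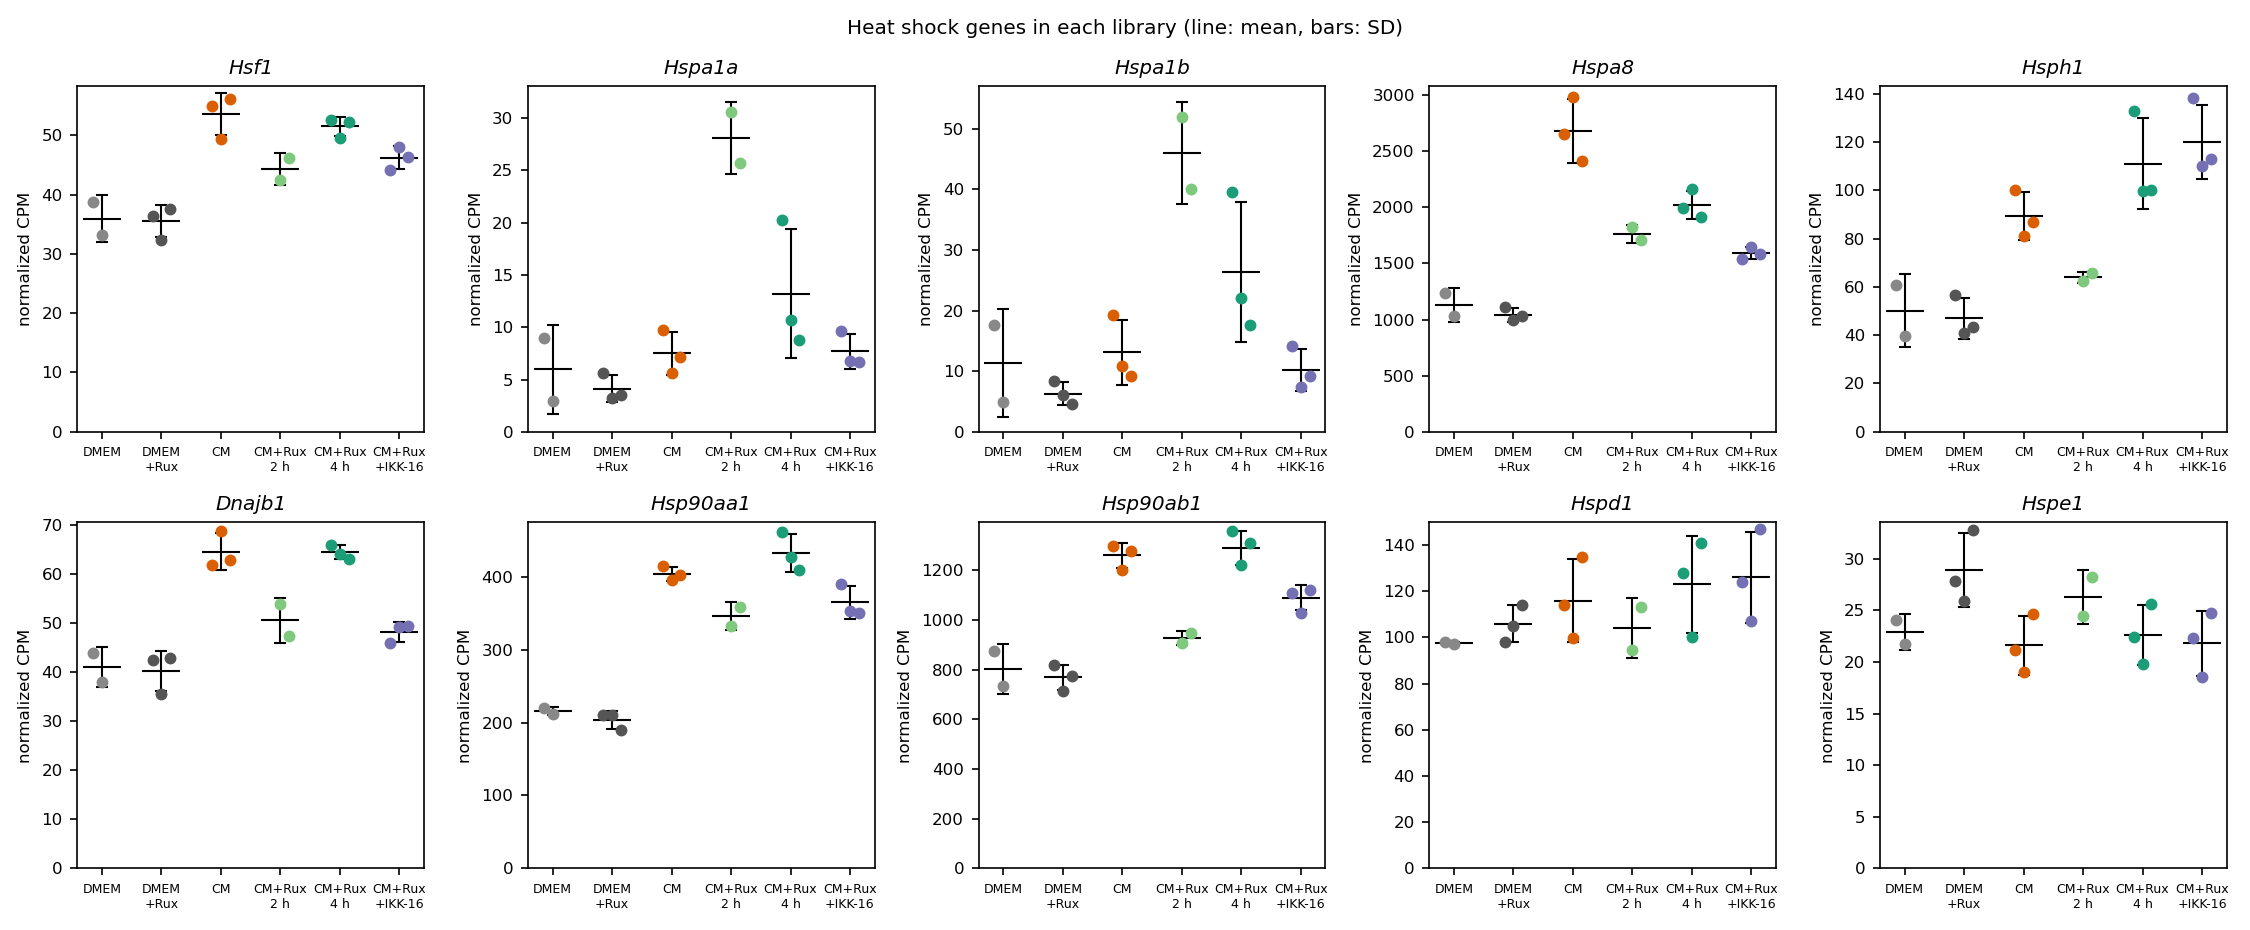
Normalized CPM of the 10 heat shock genes (y axis from 0) in each library, by group (x axis), with the mean as a line and the SD as bars (n = 2 for DMEM and CM + Rux 2 h, n = 3 for the others). Hspa8 and Hsp90aa1 were higher in every CM library than in any DMEM library, and Hspa1a and Hspa1b were highest in the libraries labelled 2 h.

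The first comparison asked how macrophages in tumor medium differ from those in DMEM. In CM, 6 of the 10 heat shock genes rose against DMEM, led by the constitutive HSP70 Hspa8, and none fell. The 6 were Hspa8, Hsp90aa1, Hsph1, Dnajb1, Hsp90ab1 and Hsf1. The inducible pair Hspa1a and Hspa1b and the mitochondrial pair Hspd1 and Hspe1 did not pass the test. The median log2 fold change of the 10 was 0.61, beside -0.005 for all genes tested. Among all genes, 20.9% were called higher and 24.1% lower in this comparison, where called means an adjusted p-value under 0.05 in edgeR's quasi-likelihood test and a log2 fold change beyond 0.5.

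Hspa8, which also strips clathrin from vesicles and carries proteins to lysosomes, had 1240 and 1030 CPM in DMEM and 2650, 2980 and 2410 CPM in CM. All CM libraries were above both DMEM libraries. The log2 fold change was 1.24 (SE 0.11), or 2.37-fold, with an adjusted p of 5.7e-07. Hsp90aa1, the stress-inducible HSP90, had 220 and 212 CPM in DMEM and 415, 395 and 402 CPM in CM, a log2 fold change of 0.90 (SE 0.08, adjusted p 5.7e-07). These groups were far apart beside their spread (SD of 5.4 CPM over the 2 DMEM libraries and of 10.1 CPM over the 3 CM libraries). Hsp90ab1, its constitutive partner, was measured at 804 ± 101 CPM in DMEM (SD, n = 2) and, in CM, at 1260 ± 52.1 CPM (SD, n = 3). Its log2 fold change was 0.65 (SE 0.09, adjusted p 4.5e-05).

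Hsph1, the nucleotide exchange factor, had 60.9 and 39.6 CPM in DMEM and 100, 81.1 and 86.8 CPM in CM. The DMEM libraries of Hsph1 differed more from each other than those of the HSP90 genes, and the log2 fold change was 0.83 (SE 0.19, adjusted p 0.0021). Leaving out single libraries moved it between 0.55 and 1.17, the call remaining in all 16 such fits. Dnajb1, the HSP40 that delivers clients to HSP70, was measured at 41.1 ± 4.15 CPM in DMEM (SD, n = 2) and at 64.6 ± 3.74 CPM in CM (SD, n = 3). Its log2 fold change was 0.65 (SE 0.10, adjusted p 5e-05). Hsf1, which is mainly controlled after translation, had 38.7 and 33.1 CPM in DMEM and 54.9, 49.4 and 56.1 CPM in CM. Its log2 fold change was 0.57 (SE 0.09, adjusted p 8.8e-05), close to the threshold of 0.5. Without DMEM replicate 2, which left a single DMEM library, it was 0.47, below the threshold.

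Hspd1 had 97.9 and 97 CPM in DMEM and 114, 99.7 and 135 CPM in CM (log2 fold change 0.26, SE 0.16, adjusted p 0.18). Hspe1 had 24.1 and 21.7 CPM in DMEM and 21.2, 19 and 24.6 CPM in CM (log2 fold change -0.09, SE 0.15, adjusted p 0.63). Both genes overlap on opposite strands, and strand was used in counting. Hspa1a had 9.01 and 2.99 CPM in DMEM and 9.74, 5.65 and 7.13 CPM in CM, and Hspa1b had 17.6 and 4.95 CPM in DMEM and 19.2, 10.9 and 9.2 CPM in CM. The pair of DMEM libraries alone thus spanned about the same range as CM, and the log2 fold changes were 0.28 (SE 0.43, adjusted p 0.59) for Hspa1a and 0.18 (SE 0.48, adjusted p 0.76) for Hspa1b. The result rested on single DMEM libraries. Without DMEM replicate 1 the log2 fold change of Hspa1a was 1.31 and without DMEM replicate 2 it was -0.28. That of Hspa1b ranged from -0.44 to 1.38 over the fits that left out a library. Without all libraries numbered 1, the log2 fold changes were 1.09 for Hspa1a and 1.02 for Hspa1b. Fits without a DMEM library or without the libraries numbered 1 left a single DMEM library, so that only the sizes are given.

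The scaling of the libraries bears on this comparison. Scaling by relative log expression (RLE) moved the median of all genes by 0.31 (log2) against scaling by total counts. With total counts, 3 of the 10 heat shock genes were called higher: Hspa8, Hsp90aa1 and Hsph1 kept the call, and Hsf1 (0.26), Dnajb1 (0.34) and Hsp90ab1 (0.34) lost it through the fold threshold. On that scale 1536 of all genes were called higher and 4606 lower, in place of 2584 and 2980.

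**Figure D2:**
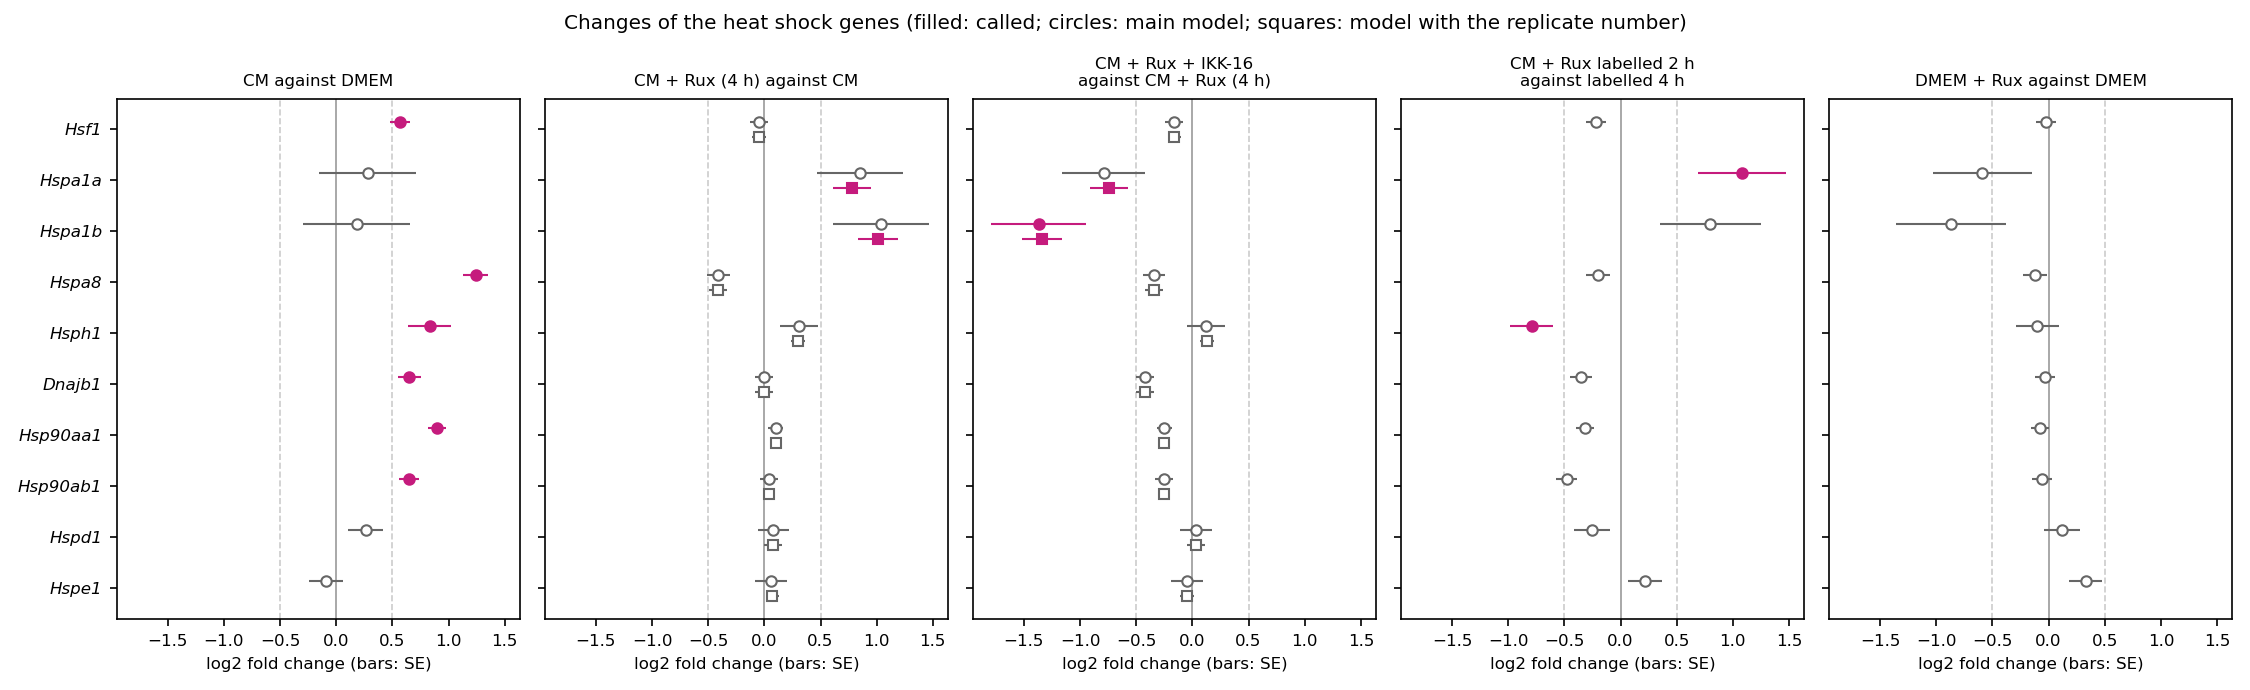
Log2 fold changes of the 10 heat shock genes (x axis, bars are SE) in 5 comparisons, with dashed lines at 0.5 in either direction. Circles are the main model, squares the model with the replicate number, and filled symbols are called. Squares are drawn only for CM + Rux against CM and for CM + Rux + IKK-16 against CM + Rux. In CM against DMEM 6 genes are filled to the right of 0, while in the comparisons with inhibitors the called genes are from the inducible HSP70 pair and Hsph1.

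The next comparison addressed what JAK inhibition does to macrophages in tumor medium. With ruxolitinib in CM, 0 of the 10 genes were called, beside 1.2% of all genes called higher and 2.13% called lower. At an unadjusted p under 0.05, 3 of the 10 passed, beside 15.3% of all genes, and DESeq2 also called 0. The median log2 fold change of the members was 0.07, beside 0.007 for all genes. Replicate numbers of the labels paired the libraries here, since libraries with the same number deviated together. In the model with the replicate number 2 of the 10 were called, Hspa1a and Hspa1b, both higher in CM + Rux, beside 2.47% of all genes called higher and 3.56% called lower.

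Hspa1a had 9.74, 5.65 and 7.13 CPM in CM and 20.3, 10.7 and 8.75 CPM in CM + Rux, for replicates 1, 2 and 3. It was higher with ruxolitinib in each of the 3 pairs, although the groups overlapped. The log2 fold change was 0.85 (SE 0.38, adjusted p 0.29) in the main model and 0.78 (SE 0.17, adjusted p 0.0085) with the replicate number. Hspa1b had 19.2, 10.9 and 9.2 CPM in CM and 39.5, 22.1 and 17.7 CPM in CM + Rux. Each pair was again higher with ruxolitinib, by close to the same factor, with log2 fold changes of 1.04 (SE 0.43, adjusted p 0.24) and, with the replicate number, 1.01 (SE 0.18, adjusted p 0.0022). When each of the 16 libraries was left out of the model with the replicate number, Hspa1b was called in 16 fits and Hspa1a in 13. Hspa1a lost the call without CM replicate 1 (0.68, adjusted p 0.07), CM replicate 2 (0.73, adjusted p 0.053) or CM + Rux replicate 1 (0.69, adjusted p 0.065). Without all libraries numbered 1, the main model gave 0.62 for Hspa1a and 0.99 for Hspa1b, and neither was called.

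Hspa8 went the other way, from 2650, 2980 and 2410 CPM in CM to 1990, 2160 and 1910 CPM in CM + Rux. The groups did not overlap, and the log2 fold change was -0.41 (SE 0.10, adjusted p 0.026), past the test but within the fold threshold. Under other processing choices it was -0.48 to -0.33, and the adjusted p did not stay under 0.05 in every such fit. On the adjusted p alone, 1 of the 10 members was lower, beside 2.74% of all genes. CM + Rux still lay above the 1030 to 1240 CPM of DMEM. Hsph1 had 133, 99.7 and 100 CPM in CM + Rux (log2 fold change 0.31, SE 0.17, adjusted p 0.43, and 0.30, SE 0.06, adjusted p 0.0042 with the replicate number, within the fold threshold). Log2 fold changes of Hsf1, Dnajb1, Hsp90aa1, Hsp90ab1, Hspd1 and Hspe1 were between -0.05 and 0.10, with SE of 0.07 to 0.14.

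Ruxolitinib in DMEM tells whether the drug acts on these genes without tumor factors. None of the 10 was called, 1 passed an unadjusted p under 0.05 (Hspe1), beside 5.2% of all genes, and DESeq2 called 0. Among all genes 0% were called higher and 0.97% lower. Hspe1 had 24.1 and 21.7 CPM in DMEM and 27.8, 25.9 and 32.8 CPM in DMEM + Rux (log2 fold change 0.33, SE 0.15, adjusted p 0.96). Hspa1a had 5.63, 3.26 and 3.5 CPM and Hspa1b 8.4, 6.03 and 4.53 CPM in DMEM + Rux, between the DMEM values or close to the lower one. The log2 fold changes were -0.59 (SE 0.44) for Hspa1a and -0.87 (SE 0.49) for Hspa1b, both with an adjusted p of 1. Without DMEM replicate 1, which left a single DMEM library, they were 0.44 and 0.33, so that their sign rested on the library left out.

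Whether ruxolitinib acted differently in CM than in DMEM was tested as an interaction. In the main model 0 of the 10 genes were called, 2 had an unadjusted p under 0.05 (9.08% of all genes) and DESeq2 called 0, beside 0.234% of all genes called higher and 0.178% lower. The values were 1.44 (log2, SE 0.58, adjusted p 0.42) for Hspa1a and 1.91 (SE 0.65, adjusted p 0.28) for Hspa1b. With the replicate number both were called, at 1.13 (SE 0.28, adjusted p 0.036) for Hspa1a and 1.53 (SE 0.29, adjusted p 0.0091) for Hspa1b, beside 2% of all genes called higher and 1.59% lower. Leaving out single libraries from that model kept the call in 15 of 16 fits for Hspa1b and in 8 of 16 for Hspa1a. The difference rested on DMEM replicate 1. Without it the call of both was lost, at 0.87 for Hspa1b and 0.60 for Hspa1a in the model with the replicate number. The main model then gave 0.70 and 0.41. Without all libraries numbered 1, the main model gave 0.89 for Hspa1b and 0.44 for Hspa1a. These fits left a single DMEM library, so that only the sizes are given. The call of Hspa1a was also lost without CM replicate 1 or 2, CM + Rux replicate 1 or 2, CM + Rux + IKK-16 replicate 3, or DMEM + Rux replicate 1 or 3, where its difference stayed between 1.01 and 1.17. The log2 difference of the other members was between -0.29 and 0.41 in the main model. This test shares the CM and CM + Rux libraries with the comparison before it.

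Blocking IKK in addition to JAK was compared with JAK inhibition alone in the same medium. Hspa1b fell, and it was the 1 member called, beside 3.66% of all genes called lower and 4.07% called higher. Hspa1b had 39.5, 22.1 and 17.7 CPM in CM + Rux and 14.1, 7.46 and 9.21 CPM in CM + Rux + IKK-16, for replicates 1, 2 and 3. All libraries with IKK-16 were below all those without it. The log2 fold change was -1.37 (SE 0.42), or 0.387-fold, with an adjusted p of 0.045 that lay just inside the threshold. It was lost in 11 of the 16 fits that left out a library (CM replicate 2, both 2 h libraries, CM + Rux replicates 1 and 2, and all 3 libraries each of CM + Rux + IKK-16 and DMEM + Rux), where the log2 fold change stayed between -1.67 and -0.96 and the adjusted p reached 0.18.

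With the replicate number, 2 of the 10 were called lower with IKK-16, Hspa1b and Hspa1a, beside 5.04% of all genes called lower and 5.81% called higher. Hspa1b then had a log2 fold change of -1.34 (SE 0.18, adjusted p 0.00016) and kept the call in 16 of 16 fits that left out a library. Hspa1a had 20.3, 10.7 and 8.75 CPM in CM + Rux and 9.64, 6.73 and 6.7 CPM with IKK-16, lower in each pair although the groups overlapped. Its log2 fold change was -0.79 (SE 0.37, adjusted p 0.17) in the main model and -0.74 (SE 0.17, adjusted p 0.0052) with the replicate number, where it kept the call in 15 of 16 fits, the exception being without CM + Rux + IKK-16 replicate 1 (-0.58, adjusted p 0.051). When the counts of both copies were added up, the main model gave -1.15 with an adjusted p of 0.071. Without all libraries numbered 1, it gave -1.25 for Hspa1b and -0.53 for Hspa1a. The libraries with IKK-16 stood at 7.69 ± 1.69 CPM (SD, n = 3) for Hspa1a and 10.2 ± 3.43 CPM for Hspa1b, beside 7.5 ± 2.07 and 13.1 ± 5.34 CPM in CM without inhibitors.

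On the adjusted p alone, without the fold threshold, 4 of the 10 members were lower with IKK-16, beside 7.65% of all genes. They were Hspa1b, Dnajb1, Hspa8 and Hsp90aa1. Under other processing choices the log2 fold change was -0.44 to -0.33 for Dnajb1, -0.39 to -0.26 for Hspa8 and -0.30 to -0.16 for Hsp90aa1. The adjusted p of these 3 did not stay under 0.05 in every such fit. Dnajb1 had 66, 64.2 and 63.2 CPM in CM + Rux and 45.9, 49.3 and 49.4 CPM with IKK-16, a log2 fold change of -0.42 (SE 0.08, adjusted p 0.0051). The Dnajb1 groups were tight and did not overlap, and the level with IKK-16 lay between that of DMEM (41.1 ± 4.15 CPM) and that of CM (64.6 ± 3.74 CPM). Hspa8 had 1540, 1650 and 1580 CPM with IKK-16 (log2 fold change -0.34, SE 0.10, adjusted p 0.027), and Hsp90aa1 had 390, 353 and 351 CPM (-0.25, SE 0.07, adjusted p 0.031). Hsp90ab1 had 1110, 1030 and 1120 CPM with IKK-16 beside 1360, 1220 and 1310 CPM without it (-0.25, SE 0.08, adjusted p 0.058, and 0.002 with the replicate number). Hsph1 had 138, 110 and 113 CPM with IKK-16, within 0.12 (log2, SE 0.17, adjusted p 0.69) of CM + Rux. The log2 fold changes of Hspd1 and Hspe1 were 0.03 and -0.05.

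The inducible HSP70 pair was highest in the CM + Rux libraries labelled 2 h. No library without CM or without ruxolitinib is labelled 2 h, so that parts of the treatment and of handling cannot be told apart at this time. Against CM + Rux labelled 4 h, 1 of the 10 members rose (Hspa1a) and 1 fell (Hsph1), beside 12.6% of all genes called higher and 10.7% called lower. Hspa1a had 30.6 and 25.7 CPM at 2 h, above the 20.3, 10.7 and 8.75 CPM at 4 h (log2 fold change 1.08, SE 0.39, adjusted p 0.044). Hspa1b had 52 and 40 CPM at 2 h, also above the 39.5, 22.1 and 17.7 CPM at 4 h, with a log2 fold change of 0.80 (SE 0.45, adjusted p 0.18). Libraries numbered 1 were the highest of their group for both genes, and the 2 h group holds only libraries numbered 2 and 3. Leaving out all libraries numbered 1 was chosen after seeing the data. It took the highest library from the 4 h group and none from the 2 h group, so that larger log2 fold changes followed from the choice itself. They were 1.54 for Hspa1a and 1.22 for Hspa1b. This fit left a single DMEM library, so that only the sizes are given. The call of Hspa1a was lost in 8 of the 16 fits that left out a single library (CM replicate 3, both 2 h libraries, CM + Rux replicates 2 and 3, CM + Rux + IKK-16 replicate 3, and DMEM + Rux replicates 2 and 3), where the adjusted p reached 0.19, and with both copies added up (0.90, adjusted p 0.11).

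Hsph1 behaved unlike the inducible HSP70 pair, with 62.3 and 65.6 CPM at 2 h and 133, 99.7 and 100 CPM at 4 h. The log2 fold change was -0.79 (SE 0.19, adjusted p 0.0053), and the call remained in all 16 fits that left out a library. At 2 h the level of Hsph1 lay near the higher of the DMEM libraries (60.9 CPM). On the adjusted p alone 4 members were lower at 2 h, beside 20% of all genes: Hsph1, Hsp90ab1 (-0.48, SE 0.09, adjusted p 0.0013), Hsp90aa1 (-0.32, SE 0.08, adjusted p 0.0055) and Dnajb1 (-0.35, SE 0.10, adjusted p 0.011). For Hsp90aa1 and Dnajb1 the adjusted p did not stay under 0.05 under every other processing choice. Hsp90ab1 had 906 and 948 CPM at 2 h, below the 1220 to 1360 CPM at 4 h. Hspa8 had 1820 and 1710 CPM at 2 h (-0.20, SE 0.11, adjusted p 0.17) and Hsf1 42.4 and 46.2 CPM (-0.22, SE 0.09, adjusted p 0.068).

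**Figure D3:**
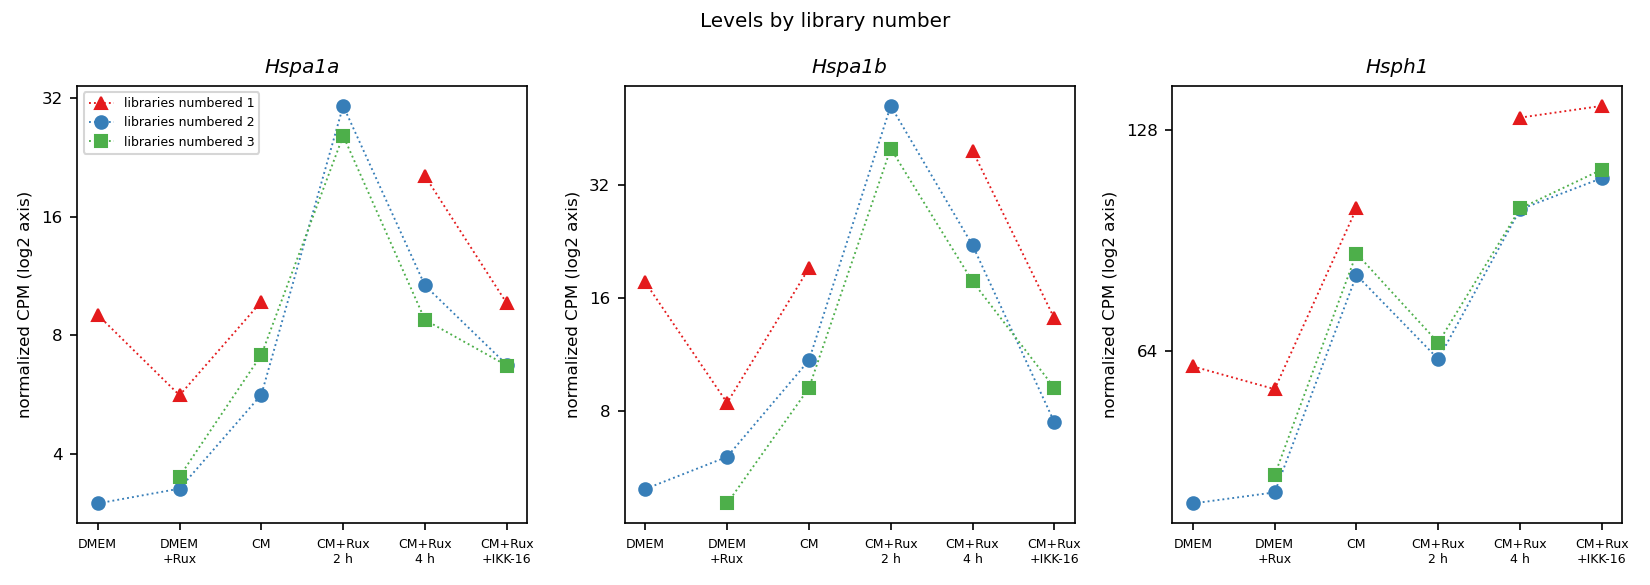
Normalized CPM (log2 axis) of Hspa1a, Hspa1b and Hsph1 by group (x axis), with libraries of the same replicate number joined by dotted lines that stop where a group has no such library. Libraries numbered 1 were the highest in each of the 5 groups that hold one, and the shift between CM, CM + Rux and CM + Rux + IKK-16 has the same direction in each number for Hspa1a and Hspa1b.

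The spread within groups followed the replicate number for some members. Hspa1a, Hspa1b and Hsph1 were highest in the library numbered 1 in 5 of the 5 groups that hold one, and Hsp90aa1 and Hsp90ab1 in 4 of 5. Hsf1, Hspa8 and Dnajb1 were so in 2 of 5 groups, and Hspd1 and Hspe1 in 1 of 5. What the number stands for was not given, and its part in these levels was not tested beyond the model with the replicate number. The ratio of Hspa1b to Hspa1a counts ranged from 1.11 to 2.08 over the 16 libraries. It was 1.95, 2.08 and 2.02 in CM + Rux at 4 h and 1.46, 1.11 and 1.37 with IKK-16, without overlap, and 1.97, 1.93 and 1.29 in CM. Since the split between the copies is uncertain, this bears on Hspa1b being called with IKK-16 in the main model while Hspa1a was not. The part of the split in that result was not tested.

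The genes whose levels over the 16 libraries were most like those of the inducible pair were named by the root mean square difference of mean-centred log2 CPM. Each copy was nearest to the other (0.26), with which it shares sequence. Next were Mycl (0.48) and Sh3bp4 (0.49) for Hspa1b, and Sh3bp4 (0.42) and Lcat (0.42) for Hspa1a. Mycl encodes a transcription factor of the MYC family, Sh3bp4 a protein of endocytosis and Lcat an enzyme that esterifies cholesterol in lipoproteins.

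Other genes of protein folding were taken from lists of 67 genes, 58 of which were tested. In CM, 24 of these (41.4%) rose and 2 (3.45%) fell against DMEM, beside 20.9% and 24.1% of all genes, with a median log2 fold change of 0.32 beside -0.005 for all genes. The choice of scaling, which moved the median of all genes by 0.31 here, is about as large as this median. The lists were not counted with scaling by total counts, so that how many of these calls depend on RLE is not known. The HSP90 co-chaperone Stip1, which links HSP70 to HSP90, rose most, with 69.5 ± 19 CPM in DMEM (SD, n = 2), 203 ± 8.06 CPM in CM (SD, n = 3) and a log2 fold change of 1.55 (SE 0.12, adjusted p 1.5e-07). These shares of all genes are also those to set beside the counts of single lists, each of which holds at most 19 tested genes. Of the 19 co-chaperones tested 8 rose, and 1 fell, Ahsa1, the activator of the HSP90 ATPase (-0.78, SE 0.09, adjusted p 4.5e-06). The cytosolic chaperonin CCT folds actin and tubulin, and 5 of its 8 subunits rose, with Cct3 at 0.79 (SE 0.08). Of the 8 endoplasmic reticulum and mitochondrial paralogs 6 rose, led by Hyou1 (1.19, SE 0.14), an HSP110 relative in the endoplasmic reticulum.

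Among the 13 HSP40 genes 3 rose and 1 fell, and the share that rose was close to that of all genes. Dnajb6 rose from 71.1 ± 2.47 to 138 ± 11.2 CPM (0.96, SE 0.09), while Dnajb14, an HSP40 of the endoplasmic reticulum membrane, fell from 122 ± 10.6 to 61.2 ± 12.9 CPM (-0.99, SE 0.18). Hspa4, a further HSP110 relative, was the 1 of 5 other HSP70 and HSP110 genes that rose (0.69, SE 0.09), and Hsf2 the 1 of 3 factors and regulators (0.83, SE 0.13). Neither of the 2 small heat shock proteins tested passed the test.

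With ruxolitinib, in CM or in DMEM, and in the test of the difference between them, 0 of the 58 were called. The shares of all genes called higher and lower were also low, at 1.2% and 2.13% in CM, 0% and 0.97% in DMEM, and 0.234% and 0.178% in the test of the difference. With IKK-16 added, 0 rose and 1 (1.72%) fell, beside 4.07% and 3.66% of all genes: Stip1 had 242 ± 5.79 CPM in CM + Rux and 145 ± 2.54 CPM with IKK-16 (SD, n = 3 each; log2 fold change -0.74, SE 0.10, adjusted p 0.00048). On the adjusted p alone, where 7.65% of all genes were lower, smaller drops also passed. All 8 CCT subunits were then lower, from -0.16 (Cct7, adjusted p 0.046) to -0.36 (Tcp1, adjusted p 6e-04). So were Dnaja1, Dnaja2, Dnajb6, Cdc37, Ptges3 and Unc45a, and no gene of the lists was higher. At 2 h against 4 h of CM + Rux, 2 genes rose and 2 fell (3.45% each), beside 12.6% and 10.7% of all genes. Those that rose were Hsf2 (0.79, SE 0.12, adjusted p 0.00023) and the small heat shock protein Hspb6 (0.83, SE 0.26, adjusted p 0.021), and those that fell were Cct3 (-0.52, SE 0.08) and Hyou1 (-0.86, SE 0.14). Hsf2 stood at 53.3 ± 10.5 CPM (SD, n = 2) at 2 h, 30.9 ± 3.66 CPM at 4 h and 15.2 ± 1.95 CPM in DMEM. Hspb6 was low throughout, with 1.63 to 4.44 CPM in the CM + Rux libraries.

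**Figure D4:**
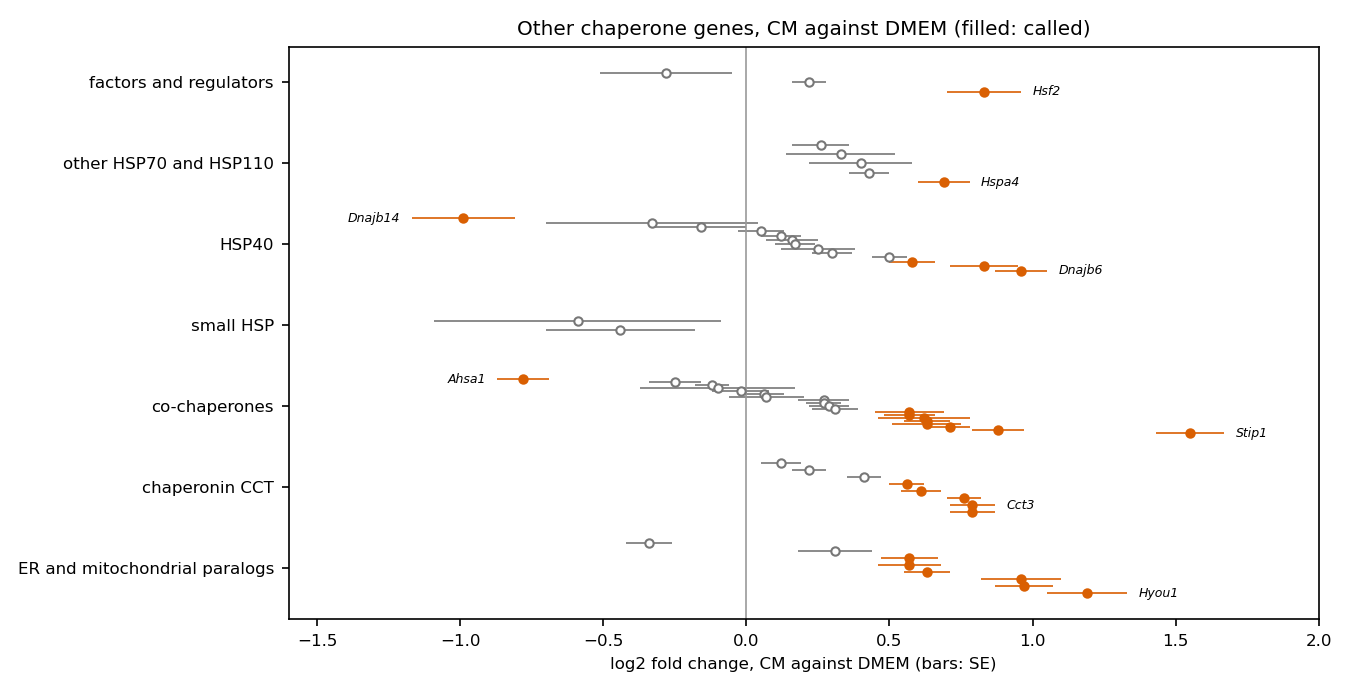
Log2 fold change in CM against DMEM (x axis, bars are SE) of the 58 other chaperone genes tested, by list (y axis), with called genes filled and the largest called change of each list in either direction named. Stip1 lies farthest to the right at 1.55, and Dnajb14 and Ahsa1 are the 2 genes called lower.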

How the data were processed

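Per the submitters' processing notes and the file header, reads were trimmed by Trimmomatic 0.33 and aligned by HISAT2 2.1.0 to GRCm38, and the authors assigned fragments to the genes of Ensembl release 100 with featureCounts 1.6.2, on the reverse strand, with both ends mapped and a mapping quality of at least 10. The deposited values are whole-number counts per gene and library, not normalized. Symbols were taken from GENCODE M21 and matched 55141 of the 55487 identifiers, positions are on GRCm38, and promoters are from RefSeq (GRCm38.p6). Groups came from the sample titles. Fragments that fit several genes or places were left out by the counting, which bears on near-identical copies.

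Counts were scaled by RLE, and CPM use the scaled totals. Genes that passed 1 CPM in 2 or more samples entered the quasi-likelihood test of edgeR 4.0.16 (limma 3.58.1, R 4.3.3) in 1 model of 6 groups and 16 libraries, with Benjamini-Hochberg adjustment over all 12372 genes. The thresholds and scaling are those of the study's methods. The script was tested on simulated data. All 16 libraries were used, and replicates differed by more than counting noise (chi-square divided by its degrees of freedom was 13.2 to 50.3). The comparisons share the libraries of CM, CM + Rux and DMEM.

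The replicate numbers of the labels were checked for pairing by the correlation of deviations from group means over all genes. It was 0.53 to 0.72 over the 3 pairs of CM and CM + Rux, 0.59 to 0.70 over the 3 pairs of CM + Rux and CM + Rux + IKK-16, and 0.16 to 0.72 over the 15 pairs of the 4 groups in the test of the difference. Within these, pairs of a group in DMEM with a group in CM had 0.16 to 0.38. The model with the replicate number takes the same effect of the number in all 6 groups. The correlation was 0.13 for DMEM and CM + Rux + IKK-16 replicate 2, and -0.01 for DMEM and CM + Rux 2 h replicate 2. The pairing rests on these values only. In the other comparisons only 2 numbers were shared.

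The 10 genes, the chaperone and marker lists and the rule for naming genes were chosen with earlier results of these data known. Named are the 10 genes, from each chaperone list the gene with the largest called change in each direction, and the 3 genes most alike in level to each of the 2 members that varied most between groups, computed on log2(CPM + 0.5). The alternatives were TMM, total counts, no filter, filterByExpr, the replicate number as a block, only the groups compared, DESeq2 1.42.0, no fold threshold, both HSP70 copies added up and each library left out. Leaving out all libraries numbered 1, TMM or total counts with the block, and leaving out libraries under the block were chosen after seeing the data. Fits without a DMEM library, a 2 h library or all libraries numbered 1 left a single library in a group. The spread of that group was then taken from the others. Figures were drawn with matplotlib.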

Additional observations from a re-analysis of the deposited data

How the results depend on the processing

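Of the log2 fold changes of the members under all alternatives, 1518 kept direction and side of the threshold, 40 gained the call, 30 lost it and 44 reversed, and no call in the main model reversed. The causes were not tested. Of the 10 members in CM against DMEM, total counts, with or without the replicate block, called 3 in place of 6. In CM + Rux against CM, in place of 0, 2 were called with the replicate block (also with TMM or total counts) and without a filter, and 1 without the fold threshold. For IKK-16, in place of 1, total counts called 0, no filter 2, the replicate block (also with TMM or total counts) 2 and no fold threshold 4, and leaving out a library gave 0 to 1. At 2 h against 4 h, in place of 2, no fold threshold called 5 and leaving out a library gave 1 to 2. In the test of the difference, in place of 0, no filter and the replicate block (also with TMM or total counts) called 2. In comparisons with only 2 shared numbers, the block changed 2 calls: Hspa1a in CM against DMEM (0.52, adjusted p 0.04) and Hspa1b at 2 h against 4 h (1.21, adjusted p 2e-04) were gained.

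Changes of sign were seen only for log2 fold changes that were not called in the main model. With total counts, CM against DMEM gave -0.03 for Hspa1a, -0.13 for Hspa1b and -0.05 for Hspd1 (-0.16 with the block), and IKK-16 gave 0.04 for Hspe1, with and without the block. Without all libraries numbered 1, DMEM + Rux against DMEM gave 0.04 for Dnajb1, 0.08 for Hsf1, 0.02 for Hsp90ab1, 0.17 for Hspa1a, 0.10 for Hspa1b and 0.09 for Hsph1, and the test of the difference gave -0.09 for Dnajb1. The difference for Hspd1 was 0.06 with the block, 0.05 with TMM and the block and 0.07 with total counts and the block. Leaving out single libraries gave, in DMEM + Rux against DMEM, -0.13 to 0.08 for Dnajb1, -0.12 to 0.10 for Hsf1, -0.18 to 0.07 for Hsp90ab1, -1.15 to 0.44 for Hspa1a, -1.49 to 0.33 for Hspa1b, -0.25 to 0.02 for Hspa8 and -0.38 to 0.24 for Hsph1. In the difference it gave -0.08 to 0.12 for Dnajb1, -0.15 to 0.07 for Hsf1, -0.03 to 0.22 for Hsp90ab1 and -0.14 to 0.10 for Hspd1. In CM against DMEM it gave -0.28 to 1.31 for Hspa1a and -0.44 to 1.38 for Hspa1b. With IKK-16 it gave -0.10 to 0.14 for Hspd1 and -0.14 to 0.06 for Hspe1, and with ruxolitinib in CM -0.03 to 0.21 for Hspd1 and -0.03 to 0.17 for Hspe1.

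Among all genes, counts called higher and lower moved by over 1.5 times as follows. Ruxolitinib in CM gave 149 and 263, but 305 and 440 with the block (298 and 444 with TMM, 335 and 425 with total counts), 269 and 416 without a filter, 225 higher without the fold threshold and 46 and 115 without all libraries numbered 1. The difference gave 29 and 22, but 49 and 41 with total counts, 147 and 87 with DESeq2, 247 and 197 with the block (236 and 206 with TMM, 254 and 198 with total counts), 213 and 136 without a filter and 0 and 0 without all libraries numbered 1. IKK-16 gave 504 and 453, but 190 and 196 without all libraries numbered 1 and 831 and 947 without the fold threshold. At 2 h against 4 h 2471 genes in place of 1327 were lower without the fold threshold. In CM against DMEM 3883 genes in place of 2584 were higher without the fold threshold, and 1611 higher and 4768 lower with total counts and the block. IKK-16 gave 1002 higher with total counts and the block. In DMEM + Rux against DMEM 77 in place of 120 were lower without all libraries numbered 1, and 1 in place of 0 was higher with the block (also with TMM or total counts), 1 without CM + Rux replicate 2 and 5 without DMEM replicate 2. Leaving out a library gave 82 (without CM + Rux replicate 1) to 166 higher and 161 (without the same library) to 322 lower for ruxolitinib in CM, and 9 (without CM replicate 1) to 84 (without DMEM replicate 2) higher and 5 (without DMEM replicate 1) to 34 (without CM + Rux replicate 2) lower for the difference. Counts of Hspa1a were the lowest of the members, at 73 to 1107 fragments per library.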
